A study of Oryza sativa with 12 samples.

Results

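The interaction of line and organ was examined in rice (Oryza sativa), that is, whether the difference between the introgression line IL50-7 and the line KMR3 in the flag leaf was the same as in the panicle. All 12 arrays of the series entered, 3 for each line and organ, and the measure at each probe set was the panicle line difference (IL50-7 minus KMR3) minus the leaf line difference, on the log2 scale. A positive interaction therefore means that IL50-7 stood higher against KMR3 in the panicle than in the leaf. The members of interest were probe sets past the threshold for this interaction whose mean lay above background in all 4 groups: 4 of the 34316 probe sets tested. With a lower background, the 75th percentile of the control probe sets instead of the 95th, 7 would count, 5 of them positive.

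The 4 groups were KMR3 flag leaf, IL50-7 flag leaf, KMR3 young panicle after full emergence and IL50-7 young panicle after full emergence, each with 3 biological replicates from untreated field-grown plants. Plant age, the number of plants behind each replicate and the donor segments of IL50-7 are not given in the labels, and IL50-7 is a single introgression line. Total RNA was hybridised to Affymetrix rice arrays, on which several short probes make up a probe set and each probe set gives 1 intensity. Levels are given as log2 intensity, quantile normalized, a step that gives every array the same distribution of values, and background is log2 4.01.

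An introgression line carries chromosome segments of a donor in the genome of a recurrent parent, so a line difference can be shared by all organs or be seen in one organ alone. The flag leaf is the last leaf below the panicle and exports sucrose to it, while the panicle bears the florets and later fills the grain. An interaction term is the usual measure of whether a difference between genotypes depends on the organ.

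Organ identity was checked with marker genes. All 10 panicle markers were tested, and 9 were higher in every panicle array than in every leaf array, the exception being MADS3. All 8 tested leaf markers were higher in every leaf array. Array means over the panicle markers were 2.12 to 2.96 in leaves and 10.56 to 11.14 in panicles. In whole-organ RNA, fewer cells of a type and less RNA per cell cannot be told apart.

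Both arrays of one pair of panicles went against their line. Of 20 probe sets that were under background in the 3 leaf arrays of one line and more than 2 log2 units above it in the 3 leaf arrays of the other, 11 also had panicle arrays on both sides. At these 11, KMR3 panicle replicate 3 had the state of the IL50-7 leaves at 11 and IL50-7 panicle replicate 2 that of the KMR3 leaves at 11. KMR3 panicle replicate 1 matched its own line at 9 of 11 and the 3 other panicle arrays at 11 of 11.

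A leaf array also stood apart. Measured from the mean of the 5 other leaf arrays, IL50-7 leaf replicate 1 deviated along the panicle minus leaf difference, with a correlation of r = 0.428 over the probe sets (these are not independent). For each other leaf array this r was between -0.152 and 0.0985. Ratios of 3' to 5' GAPDH control signal, a sign of RNA quality, were 2.54 to 6.32 in leaves, 16 to 23.3 in KMR3 panicles, and 8.72, 18.7 and 7.68 in IL50-7 panicle replicates 1 to 3. Results are given with all 12 arrays and without the arrays in doubt, and the part of RNA quality in them was not tested.

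Past the threshold, a limma adjusted p under 0.05, were 10 probe sets, 6 with a positive and 4 with a negative interaction. The split was 1 and 1 with the deposited values, 3 and 7 with equal array medians and 3 and 0 with arrays matched over their brightest probe sets. They make up 0.0291% of those tested, and 1342 (3.91%) had p under 0.05 before adjustment. Among the 22779 probe sets above background in all 4 groups, 4 were called, 3 positive and 1 negative (2 and 0 with the brightest matched, 1 and 4 with equal medians, and none with the deposited values), and 770 (3.38%) had an unadjusted p under 0.05. The leaf line difference alone was called at 25 probe sets (0.0729%) and the panicle line difference at 0 by limma, with 1128 panicle probe sets at an unadjusted p under 0.05. These counts rest on arrays in doubt: without the pair of panicle arrays 58 leaf and 125 panicle probe sets were called, and without all 3 arrays in doubt 197 and 225.

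LOC4335011, a gene on chromosome 4 without a descriptive name in the annotation used, had the smallest p of the 4 above background. Its levels were 11.33, 11.62 and 12.19 in KMR3 leaves and 8.23, 9.02 and 8.95 in IL50-7 leaves. In panicles they were 10.81, 11 and 10.94 in KMR3 and 11.10, 11.05 and 11.10 in IL50-7. The lines lay far apart in leaves, whereas in panicles they lay close together, with every IL50-7 array above every KMR3 array. In leaves IL50-7 was 7.91-fold lower, at 8.73 ± 0.44 against 11.71 ± 0.44 (SD, n = 3 each), and in panicles it was 1.12-fold higher. The interaction was 3.15 ± 0.34 (SE; limma, adjusted p = 0.021).

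The organ difference of LOC4335011 had opposite signs in the lines: the panicle was below the leaf by 0.80 log2 units in KMR3 and above it by 2.35 in IL50-7. Without the pair of panicle arrays the interaction was 3.18 and no longer passed (limma, adjusted p = 0.0818). Without IL50-7 leaf replicate 1 it was 2.90 and passed (limma, adjusted p = 0.00426).

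LOC4325616, on chromosome 1 and also without a descriptive name, had levels of 9.30, 9.49 and 10.12 in KMR3 leaves against 7.27, 7.59 and 7.82 in IL50-7 leaves. In panicles the order was reversed, with 7.41, 7.58 and 6.97 in KMR3 and 7.90, 8.05 and 8.69 in IL50-7. The lines did not overlap in either organ, and the KMR3 leaf stood above all other groups. IL50-7 was 4.22-fold lower in leaves and 1.85-fold higher in panicles, and the interaction was 2.97 ± 0.40 (limma, adjusted p = 0.0462). Without the pair it was 2.87 (limma, adjusted p = 0.108), and without IL50-7 leaf replicate 1 it was 2.82 (adjusted p = 0.0666), so the call was lost both times. A dimmer probe set of the same gene had an interaction of -0.33 ± 0.68, which did not pass.

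The probe set Os.27697.1.A1_at, for which the annotation lists no gene, was the only opposed one of the 10, meaning that its line differences had opposite signs and were within 2 times of each other in size. Its leaf levels were 8.64, 8.34 and 8.63 in KMR3 and 7.17, 7.19 and 7.47 in IL50-7. Its panicle levels were 6.94, 6.91 and 7.04 in KMR3 and 7.57, 7.68 and 7.89 in IL50-7. The lines did not overlap in either organ, and the largest SD of a group was 0.17. IL50-7 was 2.39-fold lower in leaves and 1.68-fold higher in panicles, with an interaction of 2.01 ± 0.25 (limma, adjusted p = 0.0329). It was 2.06 without the pair (limma, adjusted p = 0.108) and 1.96 without IL50-7 leaf replicate 1 (adjusted p = 0.0331).

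The negative call was a probe set of MT2C (LOC4337596, chromosome 5), a metallothionein, one of the small cysteine-rich proteins that bind metal ions. It read 7.62, 8.99 and 8.91 in KMR3 leaves and 11.85, 11.35 and 11.45 in IL50-7 leaves. In panicles it read 12.81, 12.65 and 12.42 in KMR3 and 12.43, 12.57 and 12.35 in IL50-7. IL50-7 leaves thus lay near the panicle levels, KMR3 leaves lay below all other arrays, and the panicles of the lines overlapped. IL50-7 was 8.27-fold higher in leaves and 1.13-fold lower in panicles, and the interaction was -3.22 ± 0.43 (limma, adjusted p = 0.0462).

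The panicle exceeded the leaf at this MT2C probe set by 4.12 log2 units in KMR3 and by 0.90 in IL50-7. Without the pair the interaction was -3.39 (limma, adjusted p = 0.108) and without IL50-7 leaf replicate 1 it was -3.07 (adjusted p = 0.0682), so the call was lost both times. The 4 other tested probe sets of MT2C had interactions of -2.38, -2.34, -2.14 and -2.46, all negative, and did not pass (limma, adjusted p from 0.0826 to 1). The brightest of the 5 read 9.49, 11.75 and 11.39 in KMR3 leaves and 13.39, 13.02 and 13.20 in IL50-7 leaves, so KMR3 leaf replicate 1 was the lowest there too. At that probe set 2 KMR3 panicle arrays were at the highest value of the normalized scale, 13.93. Probe sets of one gene are not replicates. Those with the suffix x or a in their names can hold probes that also match other transcripts. The called MT2C probe set carries the x.

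**Figure D1:**
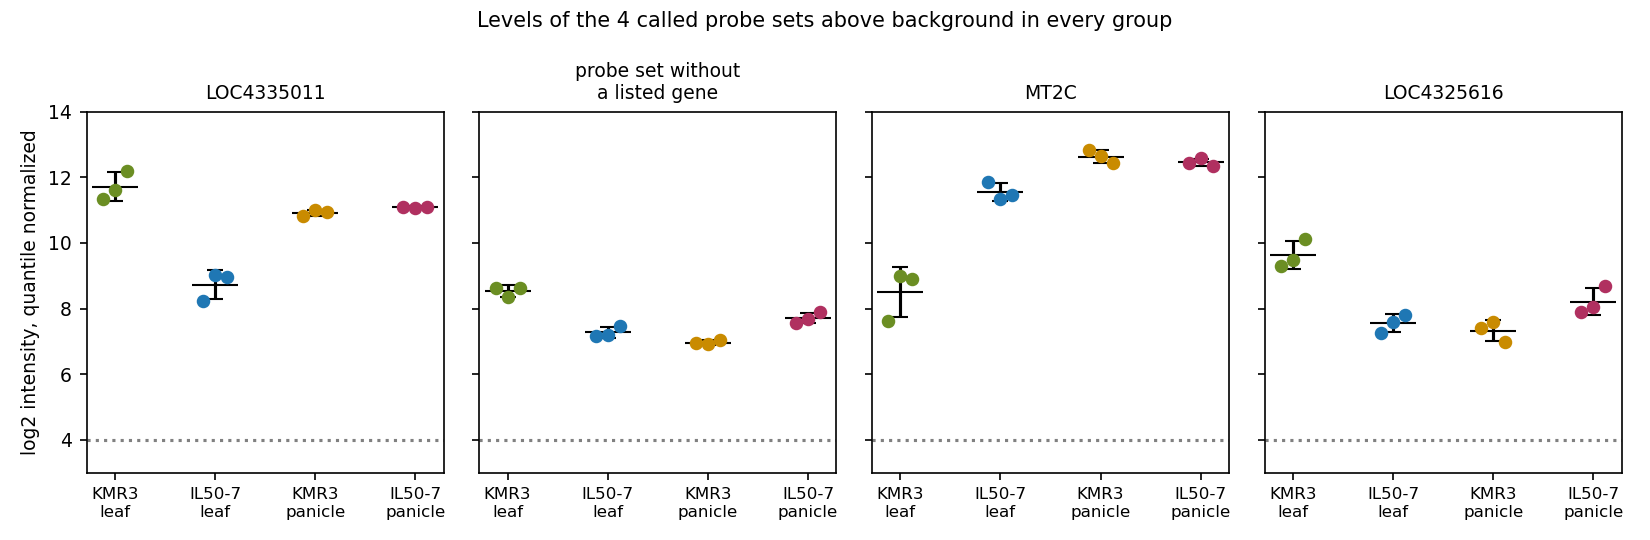
Levels of the 4 called probe sets above background in every group. The y axis is the log2 intensity after quantile normalization, the x axis gives the 4 groups, points are the 3 arrays of a group, horizontal lines are means, bars are ± 1 SD and the dotted line is the background of 4.01. LOC4335011 is low in IL50-7 leaves, MT2C is low in KMR3 leaves, and at the other 2 probe sets the order of the lines is reversed between the organs.

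The other 6 calls had a group mean under background, so the sizes of their interactions are fitted and only partly measured. OsAffx.20082.1.S1_at, with no listed gene, had the smallest p of all probe sets. It read 9.94, 9.07 and 10.48 in KMR3 leaves and 4.19, 3.92 and 3.61 in IL50-7 leaves, with 4.48, 4.61 and 5.12 in KMR3 panicles and 4.71, 4.93 and 5.47 in IL50-7 panicles. Only the KMR3 leaves were bright, and the panicles of the lines overlapped. The interaction was 6.22 ± 0.53 (limma, adjusted p = 0.00401), 6.47 without the pair (adjusted p = 0.0155) and 6.36 without IL50-7 leaf replicate 1 (adjusted p = 0.00217).

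LOC4352177 on chromosome 12 was the reverse case. It read 4.82, 5.03 and 3.91 in KMR3 leaves and 11.28, 12.86 and 11.54 in IL50-7 leaves, while all 6 panicle arrays lay between 1.18 and 3.43, under background. IL50-7 leaves thus stood alone, 158-fold above KMR3 leaves, with an interaction of -6.89 ± 0.84 (limma, adjusted p = 0.0329). Without the pair it was -7.75 (limma, adjusted p = 0.0155), and without IL50-7 leaf replicate 1 it was -7.20 (adjusted p = 0.0281).

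Os.28949.1.S1_at, with no listed gene, also was bright in IL50-7 leaves alone, at 7.42, 8.72 and 8.10, at least 16.8-fold above KMR3 leaves, where the mean was 3.21. Its interaction was -5.36 ± 0.63 (limma, adjusted p = 0.0329; without the pair -5.65, adjusted p = 0.0818). KMR3 leaves alone were bright at LOC4324961 on chromosome 1 and LOC4328294 on chromosome 2. LOC4324961 read 8.39, 8.16 and 8.33 there and 3.22, 3.97 and 5.13 in IL50-7 leaves, where 2 of the 3 arrays were under background, with an interaction of 5.80 ± 0.74 (limma, adjusted p = 0.042; without the pair 6.19, adjusted p = 0.0818). Its probe set also carries the suffix x. LOC4328294 read 7.62, 7.23 and 7.68 in KMR3 leaves and 3.61, 3.54 and 3.20 in IL50-7 leaves, at least 11.3-fold lower, with an interaction of 3.58 ± 0.49 (limma, adjusted p = 0.0462; without the pair 3.74, adjusted p = 0.102). A brighter probe set of LOC4328294 gave 0.45 ± 0.35 and did not pass.

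LOC4350599 on chromosome 11 resembled MT2C in its order, with the KMR3 leaf lowest. All 3 KMR3 leaf arrays were at the floor of 0.26, IL50-7 leaves read 4.49, 4.58 and 4.84, KMR3 panicles 5.80, 6.41 and 6.85, and IL50-7 panicles 7.20, 7.18 and 6.5. The leaf difference was at least 1.55-fold, and the interaction was -3.77 ± 0.50 (limma, adjusted p = 0.0462; without the pair -3.63, adjusted p = 0.144). With the KMR3 leaf SD at 0 by the floor, the size and SE of this call depend on the floor. Over 24 alternatives the interaction of LOC4350599 ran from -5.03 to -1.99. Its 2 other tested probe sets gave -6.20 ± 1.15 and -3.51 ± 0.90, both negative, and neither passed (limma, adjusted p = 0.367 and 1). Without IL50-7 leaf replicate 1 LOC4350599 and LOC4328294 no longer passed (limma, adjusted p = 0.0532 for each).

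At all 10 calls the lines were apart in leaves. The 3 leaf arrays of each line did not overlap at 10 of the 10 probe sets, against 9.17% of all probe sets tested, and 10 passed the limma test of the leaf line difference. That difference is part of the interaction, so it is no separate support. In panicles the lines did not overlap at 4 of 10, against 9.22% of all probe sets tested. Among these 4 was LOC4324961, whose panicle arrays, at 0.62 to 3.18, all lay under background. The panicle difference too is part of the interaction and no separate support. With leaf-led defined as a leaf line difference at least 2 times the size of the panicle one, 9 of the 10 were leaf-led and 0 panicle-led. By their own line differences, 2 of the 3 calls without the pair were leaf-led and 1 panicle-led, and of the 20 calls without the 3 arrays in doubt 13 were leaf-led, 5 panicle-led and 2 opposed. Of all 22779 probe sets above background, 32.7% were leaf-led, 28.5% panicle-led, 20.1% opposed and 18.8% shared, that is, of one sign and within 2 times.

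Below the threshold the direction turned with the scaling. Of the 770 probe sets above background with an unadjusted p under 0.05, 502 were positive and 268 negative, 65.2% positive. They were 3.38% of the 22779, a smaller share than the 0.05 that this p would give without any interaction. The 770 are thus no excess of small p, and their direction, shape and chromosomes are given as values only. With the deposited values 39 of 275 were positive (14.2%), with equal array medians 89 of 497 (17.9%), and with arrays matched over their brightest probe sets 596 of 793 (75.2%). These scalings moved the median interaction of all probe sets tested from 0.01 to -0.24, -0.23 and 0.10, so neither direction prevailed independently of the scaling. Leaf-led were 36.2%, panicle-led 21% and opposed 42.7%. None of the 770 was shared, as selecting on the difference of the line effects removes that shape. Their 518 single genes lay on all 12 chromosomes, with 16.8% on chromosome 1, where 15.1% of the genes above background lie.

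**Figure D2:**
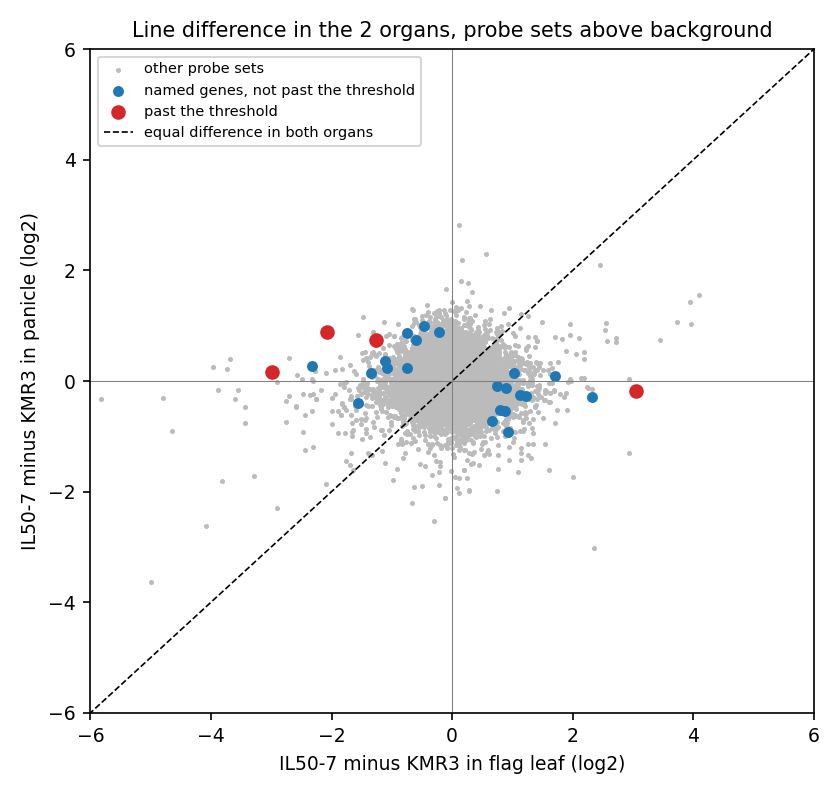
Line difference in the panicle (y axis, log2, IL50-7 minus KMR3) against that in the flag leaf (x axis, log2) for the probe sets above background in every group. Red points are the 4 past the threshold, blue points the 21 other genes chosen by p, grey points all other probe sets, and the dashed line marks equal differences. The red points lie at leaf differences of -2.98, -2.08, -1.26 and 3.05, and grey points as far from the dashed line did not pass.

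The 12 genes of smallest p in each direction above background were followed as a set, chosen by their p and without regard to the threshold. Of these 24, 16 were leaf-led, 2 panicle-led and 6 opposed. The size of the interaction ran from 0.84 to 3.22, and the 3 genes that passed were LOC4335011, LOC4325616 and MT2C. The leaf difference alone passed for 6 of the 24.

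MADS3 (LOC9271572, chromosome 1), a C-class floral regulator that specifies stamens and carpels, came next after LOC4335011 and LOC4325616 by size among the positive genes. Its levels were 6.65, 6.85 and 7.64 in KMR3 leaves, 4.31, 5.09 and 4.78 in IL50-7 leaves, 7.25, 7.65 and 7.83 in KMR3 panicles and 8.12, 7.44 and 7.97 in IL50-7 panicles. KMR3 leaves thus reached into the panicle range, IL50-7 leaves lay below all other arrays, and the panicles overlapped. The interaction of 2.59 ± 0.46 did not pass (limma, adjusted p = 0.265), nor did it in any of 25 alternatives, where it ran from 2.2 to 2.92.

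LOC4330873 on chromosome 2 read 10.80, 10.68 and 10.34 in KMR3 leaves, 9.36, 9.18 and 9.26 in IL50-7 leaves and 11.94 to 12.54 in the 6 panicles. The lines were apart in leaves and overlapped in panicles, and the interaction of 1.48 ± 0.26 did not pass (limma, adjusted p = 0.256). LOC4327377 on chromosome 1 gave 1.48 ± 0.32 (limma, adjusted p = 0.711), with the lines apart in both organs and in opposite order. For the other 7 positive genes, LOC4330718, LOC4347817, LOC4342601, LOC4331662, LOC4351088, LOC4339723 and LOC4326745, the interaction ran from 0.996 to 1.62 (limma, adjusted p = 1).

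The panicle-led genes were LOC4342601 and LOC4339723. LOC4342601 on chromosome 7 read 5.84, 6.09 and 6.38 in KMR3 leaves and 5.72, 5.56 and 5.64 in IL50-7 leaves, and its panicle values were 4.41, 4.51 and 4.66 in KMR3 and 5.17, 5.73 and 5.68 in IL50-7. LOC4339723 on chromosome 5 read 6.73, 6.66 and 6.76 in KMR3 panicles and 7.43, 7.54 and 7.83 in IL50-7 panicles. Both had non-overlapping panicles, with IL50-7 on top by 2-fold and 1.84-fold, and interactions of 1.46 ± 0.37 and 1.1 ± 0.29 that did not pass (limma, adjusted p = 1). In leaves the lines of LOC4339723 overlapped. Other probe sets of both genes differed from this: a dimmer one of LOC4339723 gave -0.04 ± 0.72 with overlapping panicles, the brightest of LOC4342601 gave 0.54 ± 0.29 with overlapping panicles, and another of LOC4342601 gave -0.67 ± 0.74.

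On the negative side LOC4350416 on chromosome 11 came second to MT2C in size, at -2.61 ± 0.57 (limma, adjusted p = 0.765). It read 4.20, 4.56 and 4.77 in KMR3 leaves, 6.14, 6.98 and 7.38 in IL50-7 leaves and 4.14 to 5.18 in panicles, so at this probe set IL50-7 leaves alone stood out. A brighter probe set of LOC4350416 had another shape, at -1.21 ± 0.42: it read 6.30, 6.62 and 6.69 in KMR3 leaves, 7.07, 8.04 and 8.40 in IL50-7 leaves and 7.78 to 8.24 in panicles, so KMR3 leaves were lowest. LOC4350626 on the same chromosome gave -1.62 ± 0.41, with 4.89, 5.75 and 5.4 in KMR3 leaves, 7.39, 7.40 and 6.4 in IL50-7 leaves and 8.67 to 8.91 in panicles. Here, as at MT2C, the KMR3 leaf was lowest and the panicles were highest. The remaining 9, LOC4330115, LOC4341616, LOC4349687, LOC4346656, LOC4351995, LOC4330551, LOC4336067, LOC4351830 and LOC4340178, ran from -1.86 to -0.84 (limma, adjusted p = 1 for these and LOC4350626).

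**Figure D3:**
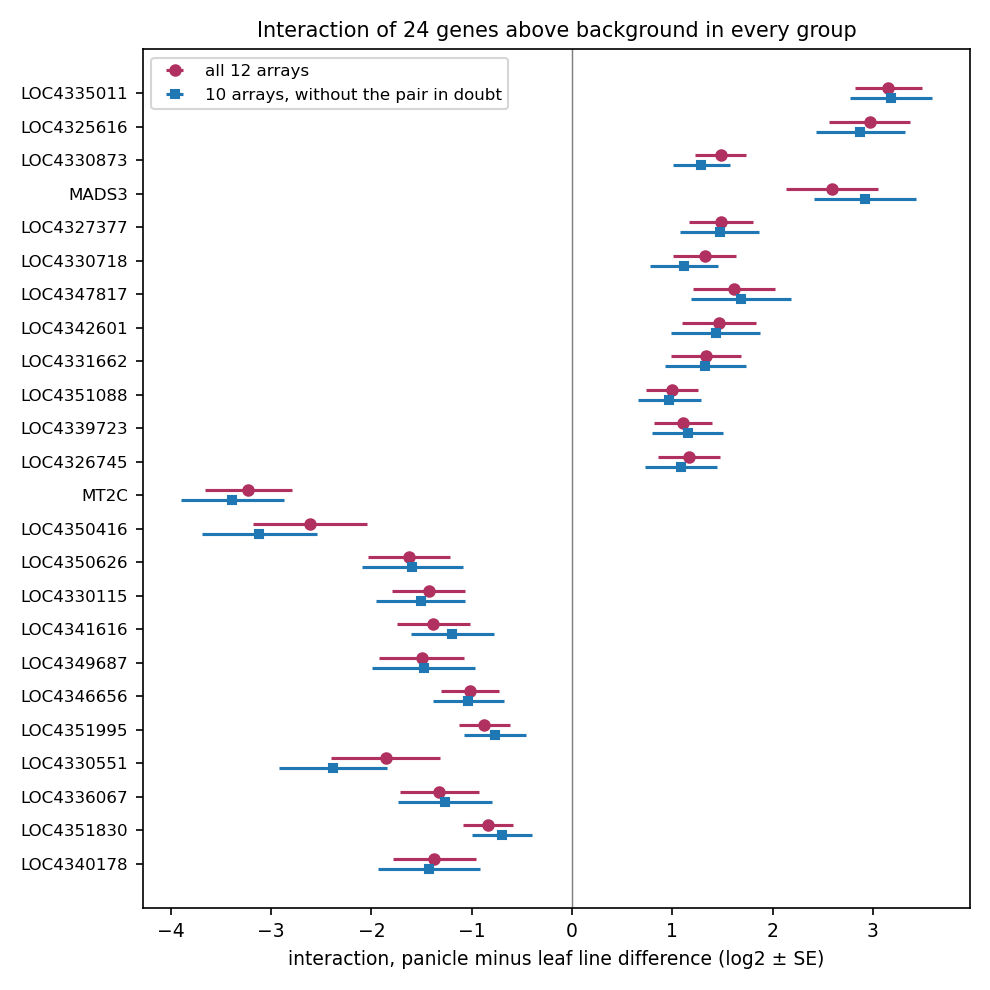
Interaction (x axis, log2, panicle minus leaf line difference, ± SE) of the 24 genes of smallest p above background, 12 in each direction (rows). Red circles are estimates from all 12 arrays and blue squares those from the 10 arrays without KMR3 panicle replicate 3 and IL50-7 panicle replicate 2. LOC4335011 moves from 3.15 to 3.18, MADS3 from 2.59 to 2.92 and MT2C from -3.22 to -3.39.

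Because most of these genes carry only a LOC number, the 12 genes of smallest p in each direction that have a descriptive name were also read. This step was added after values had been seen, and apart from MT2C none of them passed (limma, adjusted p = 1, and 0.265 for MADS3). They are given as values. LOGL3, of the LONELY GUY family of cytokinin-activating enzymes, read 9.29, 9.17 and 9.09 in KMR3 leaves and 8.03, 7.70 and 7.98 in IL50-7 leaves, and 9.28 to 10.76 in panicles, where the lines overlapped. Its interaction was 1.37 ± 0.45. GH3-8, which conjugates auxin to amino acids, had a like shape at 1.41 ± 0.43, with 6.69, 6.38 and 5.31 in KMR3 leaves, 4.78, 4.77 and 4.82 in IL50-7 leaves and 9.91 to 10.45 in panicles.

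Glup3, a vacuolar processing enzyme that matures storage proteins in the seed, differed mainly in panicles, at 8.00, 8.17 and 8.40 in KMR3 and 9.21, 8.94 and 9.55 in IL50-7, with an interaction of 1.42 ± 0.39. RTUB-2, a beta tubulin, read 9.35, 9.54 and 9.78 in KMR3 panicles and 10.09, 10.04 and 10.17 in IL50-7 panicles, with 0.90 ± 0.25. At these probe sets the panicles of the lines did not overlap and the leaves did. Brighter probe sets of both genes had overlapping panicles, at 0.15 ± 0.25 for Glup3 and -0.11 ± 0.24 for RTUB-2, and a dim one of RTUB-2 gave -2.28 ± 0.66. FBA1, a fructose-bisphosphate aldolase, had 0.56 ± 0.18 (0.197 with the deposited values), IVD, an isovaleryl-CoA dehydrogenase, had 0.85 ± 0.24, and GAPC2, a cytosolic glyceraldehyde-3-phosphate dehydrogenase, had 2.64 ± 0.87. The remaining positive genes, DBB1, LSD1, FH13 and ANT, had values of 0.59 to 2.40. Other probe sets gave smaller or opposite values: -0.21 for DBB1, 0.06 for FH13, 0.56 for IVD, and 0.61, 0.72 and 0.58 for LSD1.

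The named negative genes included a glycolate oxidase, GLO3, a photorespiratory enzyme. It read 6.33, 4.97 and 6.11 in KMR3 leaves and 8.02, 6.5 and 6.76 in IL50-7 leaves, and 9.21, 9.09 and 8.61 against 8.35, 8.41 and 8.54 in panicles. The lines were apart in both organs and in opposite order, at -1.83 ± 0.59. Nramp1, a metal transporter, gave -2.10 ± 0.81, with 3.72, 5.80 and 5.29 in KMR3 leaves and 7.90, 6.56 and 6.01 in IL50-7 leaves.

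Further negative genes of this selection were BZR1, a transcription factor of brassinosteroid signalling, at -1.27 ± 0.46, MHZ4, of abscisic acid synthesis, at -0.87 ± 0.34, and OPR7, of jasmonate synthesis, at -0.74 ± 0.29. Each had a higher IL50-7 mean in leaves and a lower one in panicles. NCL1 read 8.19, 8.11 and 8.12 in KMR3 leaves and 9.34, 9.50 and 9.33 in IL50-7 leaves, without overlap and with little spread, and had an interaction of -1.28 ± 0.41. Its value was -0.80 without the pair, the panicles reading 9.27, 9.29 and 10.15 in KMR3 and 10.20, 9.16 and 9.27 in IL50-7. Another probe set of NCL1 gave -0.76 ± 0.37, and -0.24 without the pair, where IL50-7 was higher by 0.91 in panicles too. The other 5, OsPP2C08, OsSK2, NMCP1A, CL27 and HAP2B, had values of -1.02 to -0.63. Both other probe sets of NMCP1A were positive, at 0.12 and 0.02, and those of CL27 gave -0.43 and 0.43.

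Gene lists of the leaf, the panicle, hormones, stress and transport were read next, each gene by its brightest tested probe set. Of the 20 lists, 9 were named by symbol, with 182 of 311 entries matched to a gene of the array, and 11 took the genes of a family by name. By that probe set no list had a member past the threshold, where 0.0291% of all probe sets passed. List medians ran from -0.66 to 0.34, and the median over all probe sets tested was 0.01. Of all probe sets tested, 17491 were positive and 16825 negative. The split was 11230 and 23086 with the deposited values and 11439 and 22877 with equal array medians. Shifts of list counts between scalings are to be read beside these. The signs of several medians rest on the scaling: with the deposited values and with equal array medians those of the cytokinin, ribosomal protein, aquaporin, metallothionein, chitinase and circadian clock lists were negative instead of positive, and with the brightest probe sets matched those of the calcium sensor and the potassium and sodium lists were positive instead of negative.

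Among floral regulators, 17 MADS-box genes were tested, of which 10 were positive and 7 negative, with a median of 0.34. Besides MADS3, MADS6, an AGL6-like gene of floret identity, had 2.29 ± 0.45 (limma, adjusted p = 0.474). It read 3.46, 3.18 and 2.28 in KMR3 leaves and 0.95, 0.49 and 0.26 in IL50-7 leaves, all under background, and 10.83 to 11.30 in the 6 panicles, which overlapped. In panicles the lines overlapped at MADS1 and MADS7, of the E class of floret identity, at 11.62 to 11.79 and 10.88 to 11.54, and at MADS16, a B-class gene, at 12.50 to 12.88. MADS21 read 0.43, 1.68 and 3.05 in KMR3 leaves and 3.74, 3.79 and 2.95 in IL50-7 leaves, under background, and gave -1.93 ± 0.87 (limma, adjusted p = 1). With the deposited values 8 of the 17 were positive, with a median of -0.0027.

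Of 13 anther, tapetum and pollen genes, 4 were positive and 9 negative, with a median of -0.35. Of 14 genes of grain yield and plant architecture, 8 were positive and 6 negative, with a median of 0.14. D14, the strigolactone receptor, had the smallest p there. It read 11.75, 11.74 and 11.27 in KMR3 leaves and 11.19, 11.21 and 11.54 in IL50-7 leaves, against 10.70, 10.84 and 10.71 and 10.82, 10.99 and 11.36 in panicles, which gave 0.58 ± 0.25 (limma, adjusted p = 1), and 0.23 with the deposited values. IPA1, a squamosa promoter-binding regulator of panicle branching, gave 1.5 ± 1.04, with both leaf means under background.

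In the cytokinin list 16 of 21 genes were positive and 5 negative, with a median of 0.27. RR4, a response regulator induced by cytokinin, read 11.19, 10.88 and 11.27 in KMR3 leaves and 9.73, 11 and 10.92 in IL50-7 leaves, and 5.75, 5.75 and 6.22 against 6.03, 6.24 and 6.86 in panicles. Its lines overlapped in both organs, with 1.03 ± 0.47, and 0.62 without IL50-7 leaf replicate 1. The median of the list was 0.52 without the pair, and -0.04 and -0.03 with the deposited values or equal array medians, so its sign rests on the scaling.

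Ribosomal protein genes had small interactions whose direction turned with the scaling. Here 23 of 25 were positive and 2 negative, with a median of 0.29. RPL39B, a protein of the large subunit, read 12.56, 12.48 and 12.47 in KMR3 leaves and 12.07, 12.23 and 12.33 in IL50-7 leaves, and 12.46, 12.49 and 12.27 against 12.37, 12.61 and 12.73 in panicles. Its leaves did not overlap and its panicles did, with 0.45 ± 0.18. The positive count was 21 of 25 without the pair, but 8 and 9 of 25 with the deposited values or equal array medians, where the list medians were -0.05 and -0.04. These scalings moved the median over all probe sets to -0.24 and -0.23.

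The list of abscisic acid and drought response genes had the lowest median, -0.66, with 2 of 18 positive and 16 negative. None had an unadjusted p under 0.05. The largest negative values belonged to dehydrins, proteins that accumulate in drying tissue. RAB16B read 6.77, 5.35 and 6.37 in KMR3 leaves and 7.65, 8.90 and 8.11 in IL50-7 leaves, without overlap. In panicles it read 4.77, 5.62 and 8.47 in KMR3 and 8.22, 5.91 and 6.19 in IL50-7, a spread of over 3 log2 units within KMR3. Its interaction was -1.57 ± 1.24 with all arrays and -0.04 without the pair.

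Other genes of that list differed between arrays of the IL50-7 leaf. DREB1B, a regulator of the cold response, read 5.58, 7.36 and 8.69 in KMR3 leaves, 11.27, 4.98 and 4.76 in IL50-7 leaves and 9.43 to 10.58 in panicles. IL50-7 leaf replicate 1 lay above the panicle range and the other 5 leaf arrays below it. The same array was high at ABA8OX1, an enzyme of abscisic acid breakdown, at 10.99 against 6.56 and 5.65 in the other IL50-7 leaves, and at DREB1A, at 10.01 against 3.01 and 5.08. Without it the median of the list was -0.20, and without the pair -0.38. The part of that array in the list's values was not tested further.

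The lists of sucrose and starch and of light reactions and chlorophyll had more negative than positive members. No member of either had an unadjusted p under 0.05. Of 27 sucrose and starch genes, 8 were positive and 19 negative, with a median of -0.20, and of 18 genes of the light reactions and chlorophyll, 6 were positive and 12 negative, with a median of -0.16. Without the pair these medians were -0.42 and -0.45, against 0.02 over all probe sets tested. Without IL50-7 leaf replicate 1 they were -0.115 and -0.208, against -0.0083. With the deposited values both were -0.47, where the median over all probe sets tested was itself -0.24. SS1, a soluble starch synthase, read 9.95, 10.19 and 10.67 in KMR3 leaves and 10.47, 11.15 and 10.82 in IL50-7 leaves, and 9.83 to 10.25 in the 6 panicles. Its lines overlapped in both organs, with -0.63 ± 0.32. GLK2, a regulator of chloroplast genes, had -0.31 ± 0.22, and CRSH2, a chloroplast enzyme of the stringent response, had 1.74 ± 1.15 (0.55 with array weights), with 11.67, 12.52 and 11.31 in KMR3 leaves and 8.78, 10.37 and 10.23 in IL50-7 leaves.

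Of 10 nitrogen genes 4 were positive and 6 negative, with a median of -0.07. With the deposited values or equal array medians 1 was positive and 9 negative, where most of all probe sets were negative too. NIA1, a nitrate reductase, was alike in leaves, at 11.66 to 11.94 in KMR3 and 11.64 to 12.17 in IL50-7. In panicles it read 6.54, 5.92 and 5.37 in KMR3 and 5.05, 5.74 and 3.90 in IL50-7, with an interaction of -1.12 ± 0.58, and -1.83 without the pair. No interaction of a nitrogen gene had an unadjusted p under 0.05.

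In the metallothionein family MT2C stood apart in size. MT2B, its relative, read 13.42 to 13.81 in KMR3 leaves, 13.47 to 13.65 in IL50-7 leaves, 13.68 to 13.81 in KMR3 panicles and 13.93 in all 3 IL50-7 panicles. That is the highest value quantile normalization leaves on any array, so differences there are not measured in full. Its fitted interaction was 0.31 ± 0.16, which turned negative with the deposited values (-0.0728) or equal array medians (-0.0623). MT1B gave 1.43 ± 1.41, and its KMR3 panicles read 5.08, 5.61 and 8.80 and its IL50-7 panicles 8.53, 5.44 and 6.68. Of the 7 members tested, 5 were positive and 2 negative (2 and 5 with the deposited values or equal array medians), the negative ones being MT2C and MT4C at -1.02 ± 0.55, and none passed by its brightest probe set.

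Among transporters, HAK4, of the potassium transporter family, gave -2.95 ± 0.63 (limma, adjusted p = 0.725). It read 0.26, 0.96 and 0.26 in KMR3 leaves and 3.42, 3.44 and 3.64 in IL50-7 leaves, under background, and 6.85 to 8.35 in panicles. Of 23 genes of the potassium and sodium families 11 were positive and 12 negative, and of 25 aquaporins 17 were positive and 8 negative. The aquaporin count was 5 of 25 positive on the deposited scale.

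Among 74 calcium sensor genes 36 were positive and 38 negative, a split of 16 and 58 with the deposited values or equal array medians. An unadjusted p under 0.05 was found for 4 of the 74, where 3.91% of all probe sets tested had one. CIPK12, a kinase of the calcium sensor pathway, read 7.07 to 7.43 in KMR3 leaves and 7.25 to 7.63 in IL50-7 leaves, and 1.37, 3.09 and 2.61 against 4.28, 4.05 and 4 in panicles, where the IL50-7 mean lay just above background and the KMR3 mean below it. CBL9, a calcium sensor that binds such kinases, was apart in leaves alone, at 6.58, 6.36 and 6 in KMR3 and 4.97, 5.33 and 4.99 in IL50-7. Their interactions were 1.62 ± 0.55 and 1.06 ± 0.40 (limma, adjusted p = 1).

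Heat shock genes were 7 positive and 21 negative of 28, with a median of -0.12. The split was 11 and 17 without the pair and 14 and 14 without the 3 arrays in doubt. With the deposited values it was 2 and 26, against 11230 and 23086 over all probe sets tested. HSF10, a heat shock transcription factor, read 7.08, 7.08 and 7.64 in KMR3 leaves, 7.62, 7.68 and 8.13 in IL50-7 leaves, 7.73, 7.66 and 6.80 in KMR3 panicles and 6.58, 7.32 and 6.92 in IL50-7 panicles. Its lines overlapped in both organs, and its interaction was -1.002 ± 0.43. Of 15 redox enzymes 5 were positive and 10 negative, with APX4, an ascorbate peroxidase, at 0.65 ± 0.26, and its leaves did not overlap.

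The remaining lists had medians near 0 or few genes. They were the cell cycle family (18 positive and 23 negative of 41, median -0.07), the circadian clock (4 and 2 of 6, 0.05), chitinases (6 and 3 of 9, 0.31), NAC factors (2 and 5 of 7, -0.15) and WRKY factors (1 and 5 of 6, -0.42). Each of these 5 medians turned its sign in some omission of arrays in doubt, but only the clock's turned in all of them. The cell cycle median stayed negative without the pair (-0.22) and without all 3 arrays in doubt (-0.06). Those of WRKY factors (-0.27) and chitinases (0.15) kept their sign without the pair. That of NAC factors stayed negative (-0.04) with only the leaf array in doubt dropped. Without IL50-7 leaf replicate 1 the median was 0.02 for the cell cycle, -0.07 for the clock, -0.04 for chitinases and 0.14 for WRKY factors, and without the pair it was 0.12 for NAC factors.

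The count of calls depended on single arrays. It was 16 when IL50-7 leaf replicate 1 was dropped. It was 6, 7 and 4 when KMR3 leaf replicates 1, 2 and 3 were dropped in turn, and 2 and 3 on dropping IL50-7 leaf replicates 2 and 3. Dropping KMR3 panicle replicate 3 gave 4, and dropping each of the 5 other panicle arrays gave 1. OsAffx.20082.1.S1_at passed in 12 of these 12 fits, LOC4335011 in 7, LOC4324961 in 3, and the other 7 in at most 2 each. LOC4325616, LOC4328294 and LOC4350599 passed in 0.

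**Figure D4:**
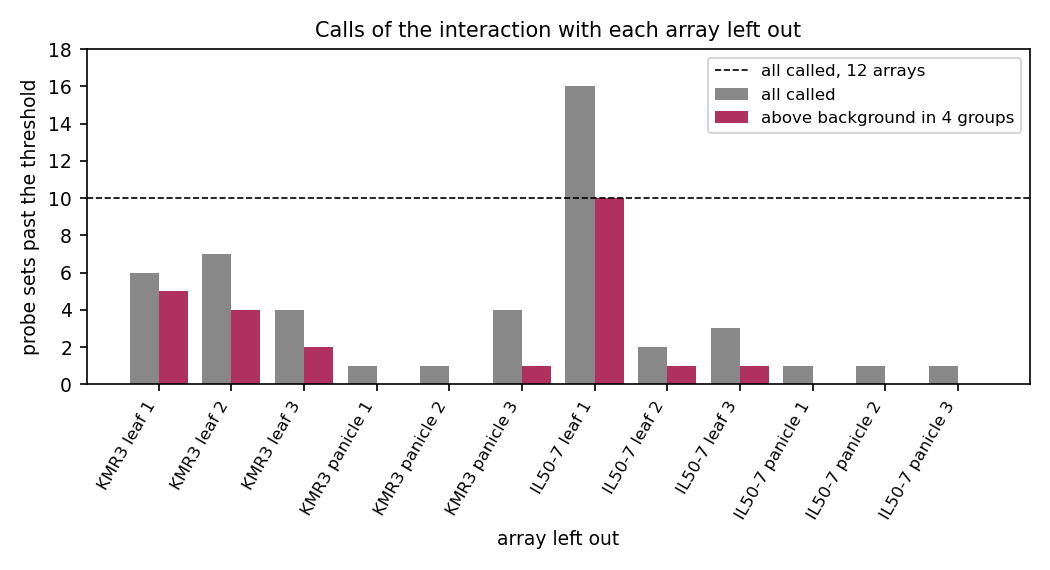
Number of probe sets past the threshold for the interaction (y axis) with each of the 12 arrays left out in turn (x axis). Grey bars count all calls and red bars those above background in all 4 groups by their means over all 12 arrays. The dashed line is the count of 10 with all arrays. The count runs from 1 to 16, and it exceeds 10 only without IL50-7 leaf replicate 1.

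With that array dropped, 6 of the 10 calls remained and 10 other probe sets were called, all positive, 8 of them above background in all 4 groups by their means over all 12 arrays. These were chosen by leaving out an array that stood apart, so they are given as values. LOC9270848 on chromosome 1 read 8.94, 8.53 and 8.15 in KMR3 leaves, 9.37, 9.41 and 8.71 in KMR3 panicles and 8.76, 9.40 and 8.84 in IL50-7 panicles. In IL50-7 leaves it read 8.53, 2.85 and 2.60. Replicate 1 thus was like a KMR3 leaf, and replicates 2 and 3 were under background. At all 10 probe sets replicates 2 and 3 lay below the other 10 arrays.

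Of these 10, 5 probe sets have a single listed gene, and their 4 genes, LOC9270848, LOC4326426, LOC4327793 and LOC4327304, all lie on chromosome 1, which holds 15.1% of the genes above background. LOC4326426 read 7.23, 3.15 and 2.63 in IL50-7 leaves and 6.80 to 8.31 in the other arrays. LOC4327793 read 7.82, 2.93 and 3.24 in IL50-7 leaves and 7.54 to 9.10 elsewhere. Every panicle array, of both lines, was bright at these genes.

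**Figure D5:**
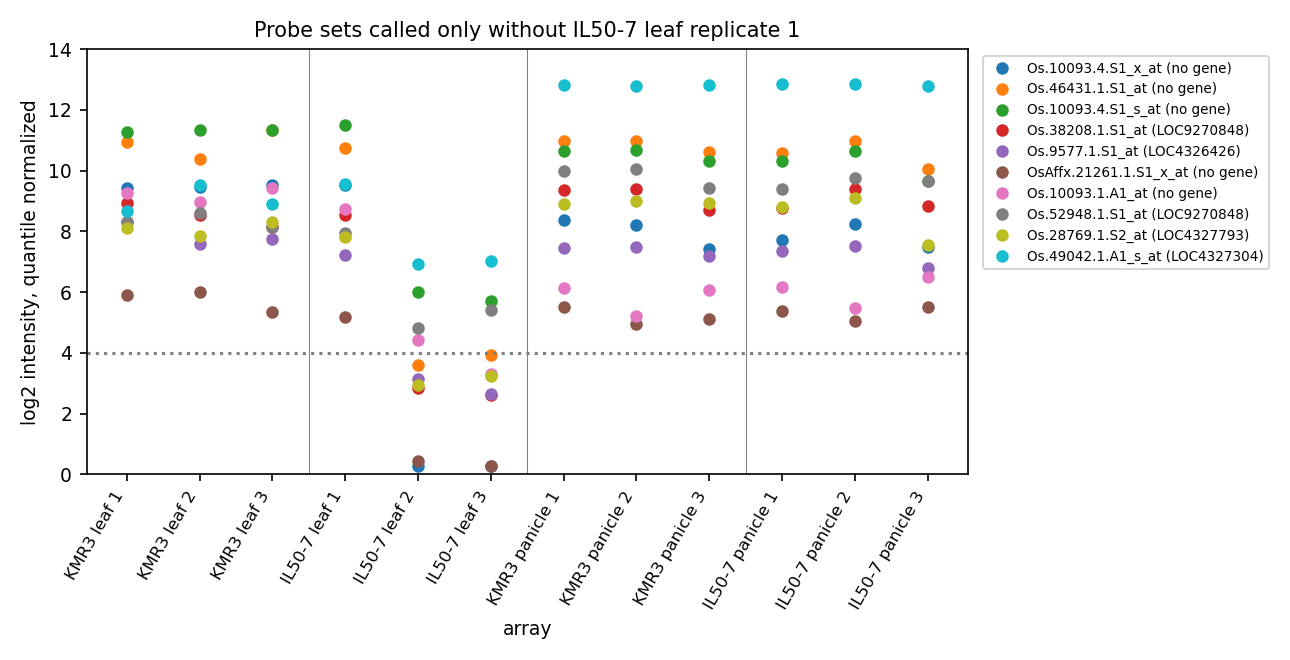
Levels (y axis, log2 intensity after quantile normalization) of the 10 probe sets called only without IL50-7 leaf replicate 1, in each of the 12 arrays (x axis). Colours mark the probe sets, with the gene in brackets where one is listed, and the dotted line is the background of 4.01. IL50-7 leaf replicates 2 and 3 lie below the other 10 arrays at every probe set, and IL50-7 leaf replicate 1 does not.

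Without the pair of panicle arrays, a pair chosen from its values, 3 probe sets were called, of which 2 were among the 10, OsAffx.20082.1.S1_at and LOC4352177. None of the 4 calls above background remained by limma, while 2201 probe sets had an unadjusted p under 0.05. The third call was LOC4329826 on chromosome 2, with 9.04 to 10.11 in the 6 leaves, 0.67, 0.26 and 8.49 in KMR3 panicles and 9.02, 0.86 and 9.47 in IL50-7 panicles. The 2 arrays of the pair lie on the opposite side from the rest of their groups, so its interaction was 8.74 without them (limma, adjusted p = 0.000481) and 3.28 ± 3.29 with all arrays (adjusted p = 1).

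With all 3 arrays in doubt left out, an alternative added after the data were seen, 20 probe sets were called. By group means over all 12 arrays, 12 of them lay above background. At some of these 12 both IL50-7 leaf arrays kept were under it, as at LOC9270848 (2.85 and 2.60 in replicates 2 and 3). LOC4335011 was among the 12, and 5 of the first 10 calls were kept. New among them was LOC4336796 on chromosome 4, at 9.35, 9.13 and 12.20 in KMR3 panicles, 11.87, 9.03 and 11.64 in IL50-7 panicles and 6.71 to 7.89 in leaves. LOC4330933 on chromosome 2 read 11.35, 11.42 and 5.23 in KMR3 panicles and 5.34, 11.50 and 5.45 in IL50-7 panicles. At both the arrays of the pair again had the level of the other line's panicles, and leaving them out fixes this separation.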

How the data were processed

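RNA of 12 rice samples was hybridised to 1-colour Affymetrix arrays. The deposited table holds linear intensity values of 57381 probe sets, 1 per array. The submitters' processing notes name GCOS 1.2 but not its role. The sources used here do not state the algorithm, scaling or background correction. Deposited 2% trimmed means ran from 125 to 296.

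Intensities were log2 transformed, quantile normalized and floored at the 10th percentile (0.26). The 187 control probe sets were dropped and probe sets with a mean above the 40th percentile kept (34316 of 57194). The background, log2 4.01 (intensity 16.1), is the 95th percentile over 23 controls for absent transcripts. A leaf fold against a group wholly under it is a bound, written as at least, and no fold is given where only the mean, or most arrays, of the dimmer group lay under it or where both means did.

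limma 3.58.1 (R 4.3.3) fitted 4 group means over all 12 arrays with a variance trend (8 residual and 3.22 prior degrees of freedom) and Benjamini-Hochberg adjustment at 0.05 over all probe sets tested. The fit was tried on simulated data with independent noise and no array that stood apart. That trial therefore cannot say how the fit behaves with the arrays in doubt. The labels do not say that replicates came from separate plants beyond calling them biological. Precision is limited by 3 arrays a group.

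Of the probe sets, 22436 have 1 listed gene, 95 several and 34663 none. Gene names and chromosome numbers are from the platform annotation and a RefSeq table (ASM3414082v1). Named were all calls, the 12 genes each way of smallest p above background with 1 listed gene, and up to 2 genes of smallest p in each list. The further 12 each way with a descriptive name, and list members shown for single arrays, were chosen after their values were seen. Members, lists and tests were chosen with earlier results of these data known. Alternatives changed the scaling, floor, filter, background, variance model and arrays used.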

Additional observations from a re-analysis of the deposited data

Results flagged for a closer look

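The line difference itself depended on the organ, by the interaction term, at the 10 called probe sets, with these values on the log2 scale: LOC4335011 3.15, LOC4325616 2.97, MT2C -3.22 and Os.27697.1.A1_at 2.01, all above background in every group, and OsAffx.20082.1.S1_at 6.22, Os.28949.1.S1_at -5.36, LOC4352177 -6.89, LOC4324961 5.80, LOC4350599 -3.77 and LOC4328294 3.58, each with a group under background. Only OsAffx.20082.1.S1_at and LOC4352177 also passed without KMR3 panicle replicate 3 and IL50-7 panicle replicate 2.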

How the results depend on the processing

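Counts are given as interaction calls, those above background in all 4 groups, leaf calls and panicle calls (10, 4, 25 and 0 with all arrays). The group means set against background always took all 12 arrays, also where arrays were left out of the fit. On the deposited scale they were 2, 0, 15 and 0, with 50% of the interaction calls positive against 60% here. After scaling the arrays to equal medians over the probe sets past the 80th percentile, they were 3, 2, 23 and 0 (100% positive), and with equal array medians 10, 5, 21 and 0 (30% positive). Without a filter they were 2, 1, 25 and 1, with the filter at the 60th percentile 4, 2, 15 and 0, without the trend 8, 2, 25 and 0, and with array weights 12, 6, 74 and 0. With the replicate block they were 4, 1, 17 and 0. With the pair of panicle arrays left out they were 3, 0, 58 and 125, and with 3 arrays left out 20, 12, 197 and 225. With 1 array left out they ran from 1 to 16, 0 to 10, 11 to 84 and 0 to 1. The causes of these changes, the smaller number of arrays or probe sets among them, were not tested. With the background at the 75th percentile of the controls 7 calls lay above it, and at the highest control 4. A filter at the background, no floor, or a floor at the 25th percentile kept each count within 1.5 times.

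The values showed no clear pairing of samples by replicate number. Deviations of same-numbered arrays correlated at -0.328 to 0.400 (median 0.014, 18 pairs, 4 over 0.1). Those of differently numbered arrays correlated at -0.473 to 0.592 (median -0.002, 36 pairs, 7 over 0.1), and 4 of 12 arrays correlated best with their own number. The arrays in doubt enter these correlations, so they cannot exclude a pairing. Signs of single interactions were followed only at the named probe sets, which were picked by smallest p, overall or within a list. Of all probe sets tested, 17491 were positive here and 11230 with the deposited values, so signs elsewhere did turn. The named ones kept their sign except 3 small ones. With the deposited values, and with equal array medians, LOC4343122, an aquaporin, turned to -0.158 and -0.147. MT2B (LOC4326409) turned to -0.0728 and -0.0623, and GLN1-2 (LOC4332108) to -0.0678 and -0.0573. None of these passed in any setting. Sizes of the named interactions moved more than their signs: FBA1 ran from 0.197 to 0.748, DBB1 from 0.238 to 0.673, D14 from 0.235 to 0.738, CRSH2 from 0.553 to 2.33 and IPA1 from 0.311 to 2.42. The pass of OsAffx.20082.1.S1_at held in 25 of 25 alternatives, that of LOC4335011 in 18, LOC4352177 in 13, Os.27697.1.A1_at in 9, MT2C in 7 and LOC4325616 in 4 of 25, and those of Os.28949.1.S1_at and LOC4324961 in 10 and LOC4350599 and LOC4328294 in 5 of 24. Probe sets under background have no measured level.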
